A study of Mus musculus with 8 samples.

Results

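The mitochondrial ribosome is built from nuclear-encoded proteins whose genes carry the symbols Mrpl (large subunit) and Mrps (small subunit). The members described here are the protein-coding genes of the GRCm38 annotation (Ensembl 96) whose symbol starts with Mrpl or Mrps followed by a digit. The count tables held 78 of them, 49 Mrpl and 29 Mrps, among 55536 genes. The rule reads symbols and uses no measured value.

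RNA was sequenced from cultured CD8+ T cells of C57BL/6 OT-1 mice, whose T cells bear 1 transgenic receptor, specific for SIINFEKL of ovalbumin. Per the methods these donors lacked Rag-1, without which lymphocytes cannot rearrange receptors of their own. Both groups were stimulated for 2 days with 100 nM of that peptide, washed, and grown for 2 more days with 20 ng/ml IL-2. Mock cells received the acetic acid vehicle and no GC7 (4 libraries) and GC7 cells received 10 µM GC7 during the IL-2 phase (4 libraries). GC7 inhibits deoxyhypusine synthase, the enzyme that starts the hypusine modification of the translation factor eIF5a. The study also reports inhibition by GC7 that does not depend on eIF5a, and these effects cannot be told apart here. The methods call the 4 libraries of each group biological replicates, and the labels give no animal for any of them. As the inhibitor was given to a whole culture, these are bulk values, in which fewer cells of a type and less RNA per cell cannot be told apart.

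The mitochondrial ribosome translates the few messenger RNAs that the mitochondrial genome encodes, all of them for subunits of the respiratory chain and ATP synthase. Its RNA comes from the mitochondrial genome, while all its proteins are made in the cytosol and imported. Many of these proteins have a bacterial counterpart, and others are found only in mitochondrial ribosomes. Activated T cells build up mitochondria as they grow and divide.

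Libraries held 17528776 to 25284730 counts, and levels are given as CPM, the count of a gene relative to the library total, scaled by TMM factors, which correct for differences in RNA composition between libraries. All 7 CD8 T cell markers were well expressed, with summed levels of 3137 to 3801 CPM in Mock and 2956 to 3154 CPM in GC7. Of the pair of CD4 T cell markers, Cd4 was at most 0.41 CPM, whereas Zbtb7b, a transcription factor that activated CD8 T cells also express, was at 91.7 to 96.2 CPM in Mock and 74.8 to 83.8 CPM in GC7. The B cell, myeloid, dendritic, NK and erythroid lists (23 markers, with Ms4a1, Pax5, Clec9a and Siglech at 0 counts) each summed to at most 11.1 CPM in any library. Within the dendritic list, low levels moved in opposite directions. Xcr1 was at 4.05 to 5.70 CPM in Mock and 0.39 to 0.82 CPM in GC7. Zbtb46 was at 0.25 to 0.60 CPM in Mock and 3.37 to 4.74 CPM in GC7. Of the 3 stromal and endothelial markers, Pecam1 alone was above 1 CPM, at 50.5 to 55.7 CPM in Mock and 30.03 to 31.9 CPM in GC7, and the part of Pecam1 and Zbtb7b in the results was not tested. Mock replicate 2 stood apart for the genes described here: it was the highest of the 4 Mock libraries for 73 of 77 members, against 38.7% of all tested genes. Its level was 1.19 times the mean of the other Mock libraries at the median member, with a range of 0.919 to 1.45. Counts of calls for each list, and the calls that changed when it was left out, are given without it beside the result.

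A gene was tested when it exceeded 3 CPM in at least 4 libraries, which kept 11189 genes and 77 members. Mrpl53, the remaining member, had 1 count in all 8 libraries together. Of its 790 exon bases, 695 lie within Gm42688, an overlapping protein-coding gene on the same strand, which itself collected 104 counts, so the expression of Mrpl53 cannot be read from this count. The tested members were moderately expressed, with mean levels in Mock from 12.1 to 92.4 CPM and a median of 39.2 CPM, beside 33.9 CPM over all tested genes. Mean counts per library ranged from 334 to 2201, and the lowest count of a tested member in any library was 202. The standard error (SE) of a log2 fold change was 0.08 at the median member and 0.09 at the median gene.

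Per length of exon, levels differed more widely among members than between the treatments. Mrpl34, a large subunit protein with a bacterial counterpart, had the highest level per length of its subunit, 67.7 CPM per kb of exon, and Mrpl47 the lowest, 3.57 CPM per kb, around a subunit median of 17.5 CPM per kb. Mrps21 stood highest in the small subunit at 61.3 CPM per kb and Mrps30 lowest at 3.81 CPM per kb, around a median of 13.7 CPM per kb. These values divide by the union of all annotated exons of a gene. With the length of the principal transcript alone, Mrpl30 was highest (107.8 CPM per kb) and Mrpl47 lowest (4.69 CPM per kb) among Mrpl members, and Mrps21 (92.9 CPM per kb) and Mrps25 (4.94 CPM per kb) among Mrps members. The members with the lowest levels overlap exons of genes on the other strand. For Mrps25 this is 4590 of 6576 exon bases (Nr2c2), and for Mrps30 623 of 6666 (B430218F22Rik). Mrpl47 shares 452 and 616 of its 4419 with Actl6a and Ndufb5. Without a stated strand setting these lowest levels are uncertain. None of Mrpl34, Mrpl47 and Mrps21 passed the test between the groups, with log2 fold changes of -0.04 (SE 0.10), 0.18 (SE 0.07) and -0.14 (SE 0.10).

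The first comparison asked how many members differed between GC7 and Mock cells. Expression of the mitochondrial ribosomal protein genes was altered for a minority of members and in both directions. With edgeR's quasi-likelihood test and Benjamini-Hochberg adjustment over all tested genes (FDR under 0.01), 12 of 77 members were higher in GC7 and 10 were lower. Over all tested genes, 23.0% were higher and 23.5% were lower, 46.6% in all, whereas the members called came to 28.6%. In the large subunit 7 of 48 members rose and 7 fell. In the small subunit 5 of 29 rose and 3 fell. The median log2 fold change was 0.01 in the large subunit and -0.02 in the small subunit, beside 0.02 over all tested genes. The members' changes were also small: the median absolute log2 fold change was 0.16, against 0.29 over all tested genes. Of the 55 members not called, 46 had a log2 fold change within 0.2 of 0, and all lay between -0.31 (Mrpl40) and 0.33 (Mrpl30).

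**Figure D1:**
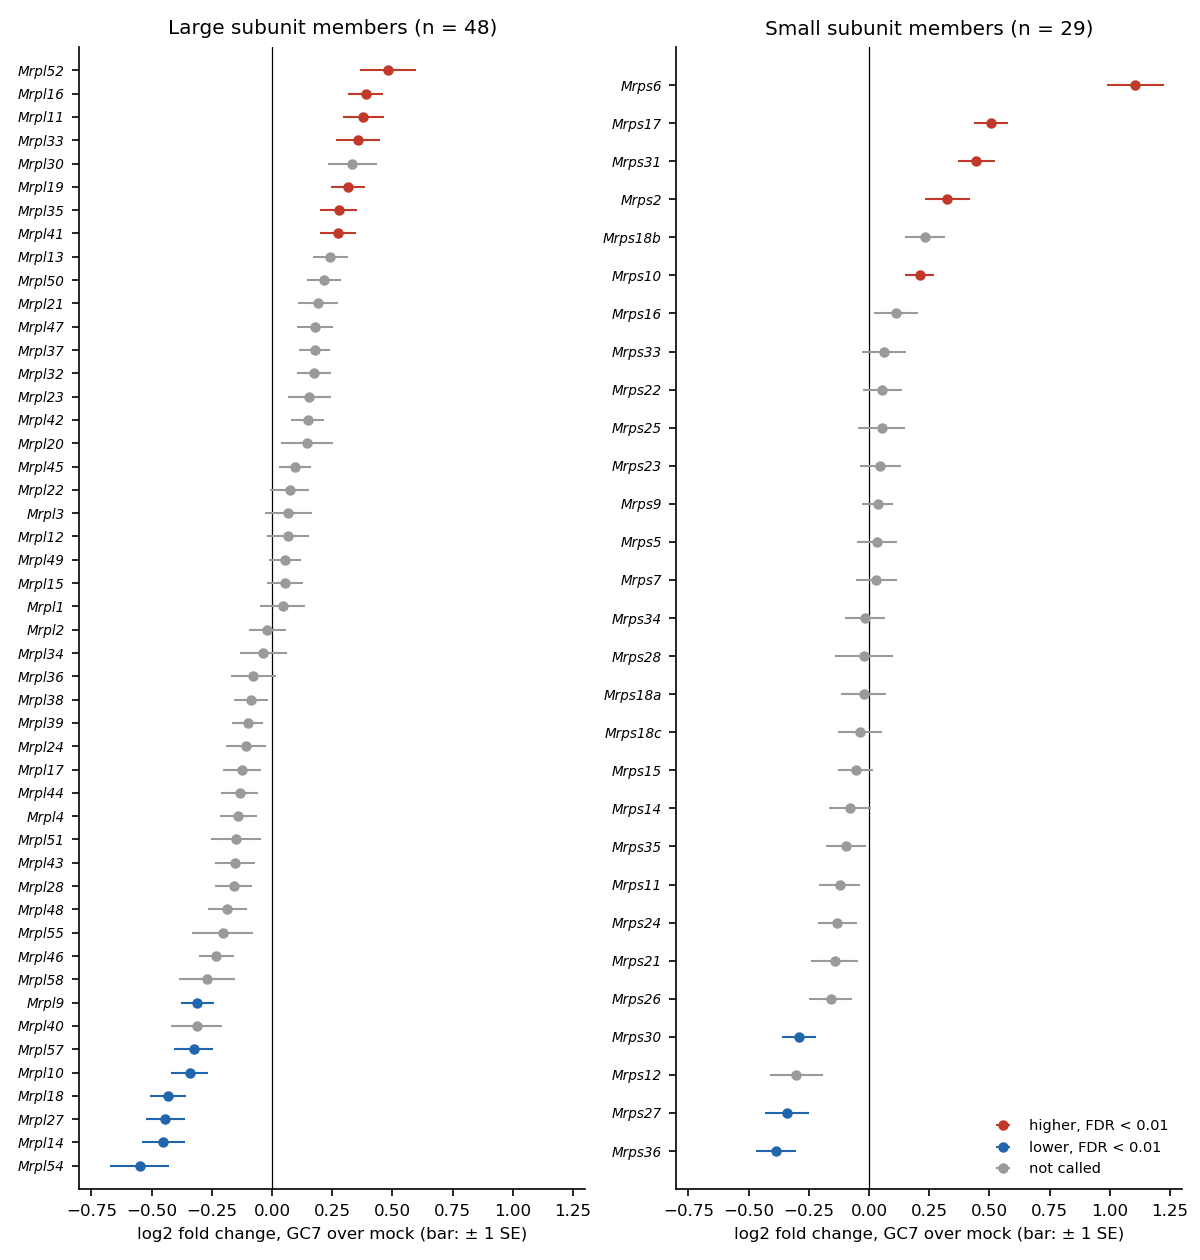
Log2 fold change (GC7 over Mock, x axis, points with bars of 1 SE) of the 48 large subunit and 29 small subunit members tested, sorted within each panel and coloured by call at an FDR under 0.01. Most points lie within 0.5 of 0, and Mrps6, at 1.11, is the only member past 2-fold.

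The count of rising large subunit members depended on single libraries. It was 14 without Mock replicate 2, 3 without Mock replicate 1, 4 without Mock replicate 3 and 3 without Mock replicate 4. Without GC7 replicates 1, 2, 3 and 4 in turn it was 6, 4, 3 and 1. The falling large subunit members were steadier, at 6 to 8 in these fits. In the small subunit, rising members numbered 4 without Mock replicate 2 or GC7 replicate 3 and 3 without any 1 of the other libraries. Falling members of the small subunit numbered 1 without Mock replicate 3 or GC7 replicates 1, 2 or 4, and 2 or 3 otherwise. Without Mock replicate 2, 18 members were higher and 9 lower, 20 of the 22 original calls held in the same direction, and 7 members joined the rising ones, all of the large subunit (Mrpl13, Mrpl21, Mrpl23, Mrpl30, Mrpl32, Mrpl37 and Mrpl50). The share of all tested genes called was then 51.0%.

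By library, the 4 GC7 values lay entirely above the 4 Mock values for 14 members and entirely below them for 13, which is 35.1% of the 77 members, while 55.6% of all tested genes were so separated. Of the 22 members called, 20 had groups that did not overlap, and all 22 moved the same way in the 4 pairs of libraries with the same number. These members were picked by the test on the same libraries, and groups that do not overlap move alike in any pairing. Neither count is therefore further support for the calls. Mrpl52 and Mrps2 were the called members whose groups overlapped.

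**Figure D2:**
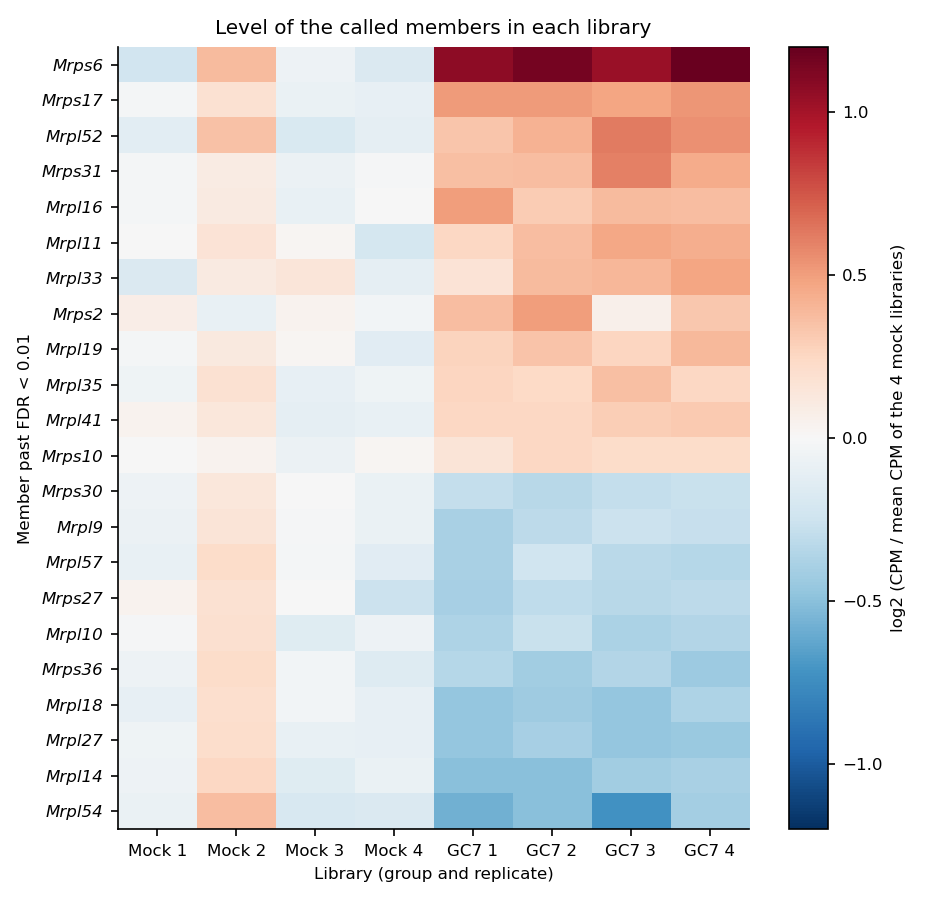
Level of the 22 called members (rows, from the largest rise to the largest fall) in each of the 8 libraries (columns), as log2 of the CPM over the mean of the 4 Mock libraries. GC7 columns are uniformly red for the 12 rising and blue for the 10 falling members, and Mock replicate 2 is the most red Mock column in most rows.

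Mrps6, the counterpart of a bacterial small subunit platform protein, showed the largest change of all members and was the only one past 2-fold, a size reached with an FDR under 0.01 by 8.48% of all tested genes. Its levels were 10.4, 15.8, 11.6 and 10.8 CPM in Mock replicates 1 to 4 and 25.5, 26.9, 24.9 and 27.6 CPM in GC7 replicates 1 to 4. Each GC7 library was above every Mock library. The means were 12.1 ± 2.49 CPM (SD, n = 4) in Mock and 26.2 ± 1.25 CPM (SD, n = 4) in GC7, a fold change of 2.15 (log2 1.11, SE 0.12, edgeR adjusted p = 8.03e-06). The call held in all 16 other fits. No member fell by more than 2-fold, either with edgeR's adjusted p or at an unadjusted p under 0.05, where the count was 0 in both cases, and DESeq2 also called 0.

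Mrps6 lies on chromosome 16 (GRCm38, positions 92058270 to 92112227, plus strand) and shares 159 exon bases on that strand with Slc5a3, which encodes a myo-inositol transporter. The RefSeq start of Slc5a3 is 14 bases from that of Mrps6. Slc5a3 measured 16.8, 11.2, 17.9 and 20.4 CPM in Mock and 44.4, 38.6, 50.1 and 39.6 CPM in GC7. Its groups did not overlap either, and its log2 fold change was 1.38 (SE 0.15, edgeR adjusted p = 8.44e-06). Within Mock the genes were not parallel in replicate 2, which was the highest library for Mrps6 and the lowest for Slc5a3. That library was the highest of Mock for 73 of 77 members, so the contrast rests on it alone. How reads in the shared exon were assigned is not given in the sources used here. The stretch upstream of the annotated exons is shown because both genes start beside it. It is 75.5% G and C and held none of the motifs searched below (GRCm38.p6, RefSeq, chr16:92058086-92058269, plus strand):
Mrps6: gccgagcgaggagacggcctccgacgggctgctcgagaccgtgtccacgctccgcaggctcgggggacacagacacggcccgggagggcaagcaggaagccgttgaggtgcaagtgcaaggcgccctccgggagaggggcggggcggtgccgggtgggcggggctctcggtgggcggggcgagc

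**Figure D3:**
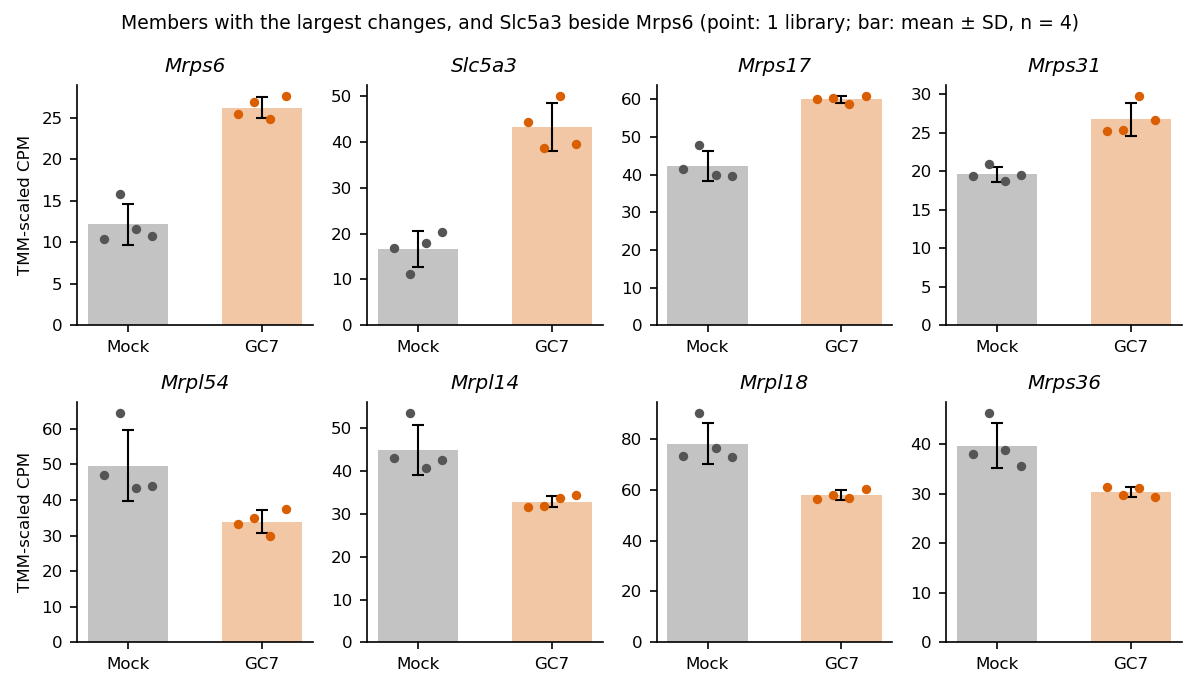
TMM-scaled CPM (y axis, from 0) of 7 members and of Slc5a3 in Mock and GC7, each point being 1 library and each bar the mean ± SD (n = 4). Mrps6, Slc5a3, Mrps17 and Mrps31 are higher in every GC7 library, and Mrpl54, Mrpl14, Mrpl18 and Mrps36 are lower in every GC7 library, than in any Mock library.

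The other rising members of the small subunit were Mrps17, Mrps31, Mrps2 and Mrps10. Mrps17, the counterpart of a primary rRNA-binding protein of the bacterial small subunit, measured 41.4, 48.0, 39.9 and 39.5 CPM in Mock and 60.0, 60.3, 58.8 and 60.9 CPM in GC7. The GC7 libraries were close together and all above Mock, with a log2 fold change of 0.51 (SE 0.07, edgeR adjusted p = 6.91e-05). Mrps31, a mitochondria-specific protein, measured 19.3, 21, 18.7 and 19.5 CPM in Mock and 25.2, 25.4, 29.8 and 26.7 CPM in GC7. Its groups did not overlap, and its log2 fold change was 0.45 (SE 0.08, edgeR adjusted p = 0.000392). Mrps17 and Mrps31 were called in all 16 other fits. Mrps2 and Mrps10, both with bacterial counterparts, were near the threshold: their log2 fold changes were 0.33 (SE 0.09, adjusted p = 0.00947) and 0.21 (SE 0.06, adjusted p = 0.00968), and they kept their call in 5 and 4 of the 16 other fits. Without Mock replicate 2, Mrps2 was not called (log2 fold change 0.30, adjusted p = 0.0162). The stretch before Mrps17, the second largest rise, is shown beside that of Mrps6 for comparison. At 50.8% G and C it was poorer in these bases, and it held none of the motifs searched either (chr5:129715247-129715496, plus strand):
Mrps17: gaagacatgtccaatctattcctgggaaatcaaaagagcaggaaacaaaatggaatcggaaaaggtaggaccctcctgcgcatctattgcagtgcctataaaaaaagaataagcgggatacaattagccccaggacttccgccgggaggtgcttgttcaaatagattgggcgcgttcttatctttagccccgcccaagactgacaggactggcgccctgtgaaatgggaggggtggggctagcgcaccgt

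In the large subunit the rising members were Mrpl52, Mrpl16, Mrpl11, Mrpl33, Mrpl19, Mrpl35 and Mrpl41. Mrpl52, a mitochondria-specific protein, had the largest rise and also the widest Mock spread, with 31.0, 43.2, 29.8 and 31.4 CPM in Mock and 42.6, 45.2, 52.2 and 49.6 CPM in GC7. Mock replicate 2 lay above GC7 replicate 1, so the groups overlapped, and the log2 fold change was 0.48 (SE 0.12, edgeR adjusted p = 0.00327). Mrpl16, whose bacterial counterpart joins late in assembly of the large subunit, measured 23.2, 25.4, 22.1 and 23.5 CPM in Mock and 33.3, 29.0, 30.6 and 30.5 CPM in GC7. Its groups were separate, its log2 fold change was 0.39 (SE 0.07, edgeR adjusted p = 0.000645), and it was the only rising large subunit member called in all 16 other fits. Mrpl11, at the base of the stalk that recruits translation factors, measured 29.4, 33.1, 30.1 and 25.4 CPM in Mock and 35.0, 38.1, 40.7 and 39.8 CPM in GC7. Its groups were also separate, with a log2 fold change of 0.38 (SE 0.09, edgeR adjusted p = 0.00234). Mrpl33, Mrpl19, Mrpl35 and Mrpl41 had log2 fold changes from 0.27 (Mrpl41) to 0.36 (Mrpl33), with separate groups in each. Mrpl11 and Mrpl19 kept their call in 15 of the 16 other fits, Mrpl52 and Mrpl33 in 11, Mrpl41 in 6 and Mrpl35 in 5. In the fit with a replicate block, adjusted p-values were 0.0155 for Mrpl35 and 0.016 for Mrpl41. Of Mrpl19's 5450 exon bases, 1962 overlap Gcfc2 on the other strand, and without a stated strand setting reads from the overlap cannot be told apart.

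The falling large subunit members were Mrpl54, Mrpl14, Mrpl27, Mrpl18, Mrpl10, Mrpl57 and Mrpl9, and in all 7 every GC7 library was below every Mock library. Mrpl54, a mitochondria-specific protein, fell most, from 46.9, 64.3, 43.3 and 44.0 CPM in Mock to 33.2, 35.0, 29.9 and 37.5 CPM in GC7. Its log2 fold change was -0.55 (SE 0.12, edgeR adjusted p = 0.00208), and without Mock replicate 2 it was -0.39 (adjusted p = 0.000734). Mrpl14, whose bacterial counterpart lies at the interface of the subunits, measured 43.0, 53.5, 40.7 and 42.5 CPM in Mock and 31.6, 31.8, 33.7 and 34.3 CPM in GC7. The highest GC7 library was below the lowest Mock library, and the log2 fold change was -0.45 (SE 0.09, edgeR adjusted p = 0.000831). Mrpl27, whose bacterial counterpart reaches towards the peptidyl transferase centre, measured 36.4, 43.7, 35.4 and 35.1 CPM in Mock and 27.3, 28.6, 27.4 and 27.6 CPM in GC7. The GC7 libraries were close together and all below Mock, and the log2 fold change was -0.44 (SE 0.08, edgeR adjusted p = 0.000484).

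Mrpl18, a protein of the central protuberance, measured 73.1, 90.0, 76.2 and 73.0 CPM in Mock and 56.4, 58.0, 56.5 and 60.4 CPM in GC7, a log2 fold change of -0.43 (SE 0.07, edgeR adjusted p = 0.000346). Tcp1, a subunit of the cytosolic chaperonin that overlaps Mrpl18 by 141 exon bases on the other strand, did not pass the test (log2 fold change -0.07, adjusted p = 0.315). Mrpl10, Mrpl57 and Mrpl9 had log2 fold changes of -0.34, -0.33 and -0.31. Mrpl54, Mrpl14, Mrpl27, Mrpl18, Mrpl10 and Mrpl9 kept their call in all 16 other fits, and Mrpl57 in 12.

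In the small subunit, Mrps36, Mrps27 and Mrps30 fell, and none of them has a bacterial counterpart. Mrps36 is named as a ribosomal protein but is now known as a subunit of the alpha-ketoglutarate dehydrogenase complex. It measured 38.0, 46.3, 38.9 and 35.6 CPM in Mock and 31.4, 29.7, 31.2 and 29.4 CPM in GC7. Its groups did not overlap, and the log2 fold change was -0.39 (SE 0.08, edgeR adjusted p = 0.00169), called in all 16 other fits. A pseudogene copy, Mrps36-ps1, matches it at 97.4% identity over 306 bases and was itself tested (log2 fold change -0.45, adjusted p = 0.0128), so the reads of the pair may be divided between them and the value is uncertain. Mrps30, a protein that structures place in the large subunit despite its symbol, had a log2 fold change of -0.29 (SE 0.07, adjusted p = 0.0038). Mrps27, a protein with pentatricopeptide repeats, had one of -0.34 (SE 0.09, adjusted p = 0.00676). Mrps30 kept its call in 10 of the 16 other fits and Mrps27 in 7. The call of Mrps27 was lost without Mock replicate 2 (log2 fold change -0.27, adjusted p = 0.0129), with a replicate block (adjusted p = 0.0118) and with library totals (adjusted p = 0.0279). With Mrps30 and Mrps18a counted in the large subunit and Mrps36 in neither, the large subunit had 7 higher and 8 lower members, the small subunit 5 higher and 1 lower, and the medians were -0.02 and 0.03.

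Members of fixed roles varied apart from each other. Of the stalk proteins, Mrpl11 rose and Mrpl10 fell, while Mrpl12 measured 47.9 ± 6.04 CPM (SD, n = 4) in Mock and 50.2 ± 2.69 CPM (SD, n = 4) in GC7 and did not pass the test. For Mrpl10 the values were 56.3, 65.0, 51.4 and 54.5 CPM in Mock and 44.0, 47.1, 43.5 and 44.6 CPM in GC7, with a log2 fold change of -0.34 (SE 0.08, edgeR adjusted p = 0.00217). Whether these genes differ from each other in their response was not tested. Mrpl58, a peptidyl-tRNA hydrolase within the large subunit, measured 48.2 ± 8.61 CPM in Mock and 40.0 ± 4.22 CPM in GC7 (SD, n = 4), with a log2 fold change of -0.27 (SE 0.12, adjusted p = 0.065), and of -0.14 (adjusted p = 0.178) without Mock replicate 2. Mrpl45, which docks the ribosome on the inner membrane, measured 75.0 ± 5.27 CPM and 80.1 ± 3.87 CPM (SD, n = 4), and did not pass the test (log2 fold change 0.09, SE 0.07). The small subunit core proteins Mrps12, at the decoding centre, Mrps7, in the head, and Mrps16 had log2 fold changes of -0.30 (SE 0.11, adjusted p = 0.0324), 0.03 (SE 0.09) and 0.11 (SE 0.09), none of them called. For Mrps12 the value was -0.17 (adjusted p = 0.0701) without Mock replicate 2.

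The paralogues Mrps18a, Mrps18b and Mrps18c, which all derive from one bacterial protein, had log2 fold changes of -0.02, 0.23 and -0.04, with SEs of 0.09, 0.08 and 0.09. For Mrps18b the 4 GC7 libraries (16.2 to 18.9 CPM) were above the 4 Mock libraries (14.1 to 16.0 CPM), but the adjusted p was 0.0291. A tested pseudogene, Gm13552, matches Mrps18b at 99.8% identity over 417 bases, so this value is uncertain too. The same holds for Mrpl23 (copy Mrpl23-ps1) and Mrps33 (copy Gm5776), neither of which was called. In all, 27 members had a pseudogene copy of at least 90% identity over 200 bases, most of them with copies too low to be tested. Called members among them include Mrpl27 (Gm6304, 98.9% over 447 bases) and Mrps10 (AC154457.3, 97.9% over 573 bases). As the handling of reads that match several places is not given, these values carry the same limit.

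Grouped by ancestry, 46 tested members were listed as having a bacterial counterpart and 31 as mitochondria-specific, with Mrps18c the only Mrps18 paralogue in the first list. Of the first, 9 rose and 5 fell, with a median log2 fold change of 0.03. Of the second, 3 rose (Mrpl41, Mrpl52 and Mrps31) and 5 fell (Mrpl54, Mrpl57, Mrps27, Mrps30 and Mrps36), with a median of -0.09. In the small subunit the 4 rising members with a bacterial counterpart were Mrps2, Mrps6, Mrps10 and Mrps17, and 0 of 16 such members fell by edgeR's test. Of the first list 19.6% rose and 10.9% fell, and of the second 9.68% and 16.1%, beside 23.0% and 23.5% of all tested genes. Without Mock replicate 2 the first list had 13 higher and 5 lower members (median 0.10) and the second 5 higher and 4 lower (median -0.02), when 25.6% of all tested genes were higher and 25.4% lower. The difference between the lists was not tested. Across the 77 members, the log2 fold change had a Spearman correlation of 0.32 with the union exon length and of 0.05 with the length of the principal transcript, given as descriptions over members that share their 8 libraries.

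Summed over members, large subunit levels were 1993, 2376, 1986 and 1972 CPM in Mock and 2003, 2045, 2075 and 2133 CPM in GC7. Small subunit levels were 1060, 1277, 1045 and 1050 CPM in Mock and 1118, 1125, 1109 and 1158 CPM in GC7. For both sums, Mock replicate 2 was above all GC7 libraries and the other Mock libraries were below all of them. The means were 2082 ± 196.7 and 2064 ± 54.7 CPM for the large subunit and 1108 ± 112.7 and 1127 ± 21.3 CPM for the small subunit, in Mock and GC7 (SD, n = 4). The ratio of the large to the small subunit sum was 1.86 to 1.90 in Mock and 1.79 to 1.87 in GC7, ranges that overlap.

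The RNAs of the mitochondrial ribosome moved differently from its proteins' transcripts. Both rRNAs, mt-Rnr1 of the small and mt-Rnr2 of the large subunit, fell, and for each the groups were far apart. mt-Rnr1 measured 588, 632, 571 and 617 CPM in Mock and 193, 241, 244 and 179 CPM in GC7, a log2 fold change of -1.49 (SE 0.10, edgeR adjusted p = 1.2e-07). mt-Rnr2 measured 952, 902, 847 and 954 CPM in Mock and 397, 471, 509 and 375 CPM in GC7, a log2 fold change of -1.06 (SE 0.10, edgeR adjusted p = 1.74e-06). Per the labels total RNA was extracted, and the study names the assay mRNA sequencing. How messenger RNA was selected, and so how much rRNA was kept, is not given in the sources used here. The 13 mitochondrially encoded messenger RNAs, a list added after its values were seen, all fell, with log2 fold changes from -1.58 (mt-Nd3) to -5.27 (mt-Co1).

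**Figure D4:**
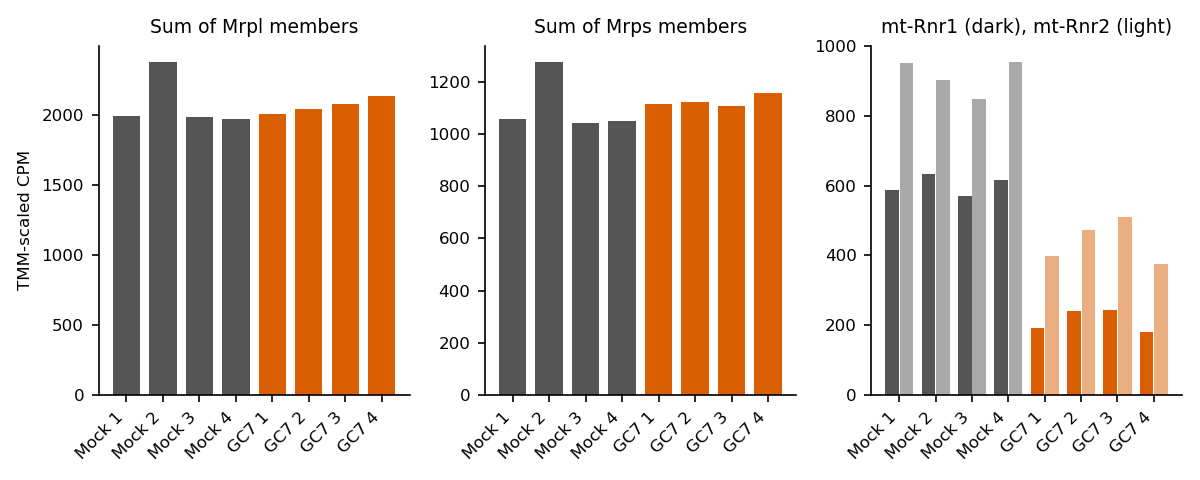
Summed TMM-scaled CPM of the Mrpl members and of the Mrps members, and the CPM of mt-Rnr1 and mt-Rnr2, in each library (Mock grey, GC7 orange, bars from 0). Mock replicate 2 (2376 and 1277 CPM) is above every GC7 library in both sums and the other Mock libraries (1972 to 1993 and 1045 to 1060 CPM) are below every GC7 library (2003 to 2133 and 1109 to 1158 CPM), while both rRNAs are lower in every GC7 library.

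Mitochondrial ribosomal proteins whose genes carry other symbols were not counted among the members. Of 5 such genes 3 fell (60%, beside 23.5% of all tested genes), 1 rose and 1 was not called. Gadd45gip1, a protein near the exit of the peptide tunnel, measured 39.0, 45.7, 35.2 and 39.2 CPM in Mock and 23.6, 23.2, 22.7 and 26.1 CPM in GC7 (log2 fold change -0.73, SE 0.09, edgeR adjusted p = 1.65e-05). Dap3, a GTP-binding small subunit protein, measured 94.8, 106.2, 97.5 and 93.5 CPM in Mock and 53.1, 57.0, 63.3 and 62.9 CPM in GC7 (log2 fold change -0.73, SE 0.07, edgeR adjusted p = 3.86e-06). Their log2 fold changes were below that of every Mrpl and Mrps member, and their groups did not overlap. Aurkaip1 also fell (log2 fold change -0.44, adjusted p = 0.000838), Ptcd3, a pentatricopeptide repeat protein of the small subunit, rose (log2 fold change 0.27, adjusted p = 0.00182), and Chchd1 had a log2 fold change of 0.08 (adjusted p = 0.536). All 5 were called without Mock replicate 2, 2 higher and 3 lower, as Chchd1 then had a log2 fold change of 0.20 (adjusted p = 0.00944).

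Among factors that assemble the ribosome or modify its rRNA, 7 of the 28 tested rose and 1 fell, with a median log2 fold change of 0.08. These are 25% and 3.57% of the list, beside 23.0% and 23.5% of all tested genes. Without Mock replicate 2, 9 rose and 1 fell: Mpv17l2, Tfb1m and Rcc1l were then called and Gtpbp10 was not (adjusted p = 0.0102). The largest rises were in Trub2, a pseudouridine synthase (log2 fold change 0.69, SE 0.09, edgeR adjusted p = 3.03e-05), and Nsun4, an rRNA cytosine methyltransferase (log2 fold change 0.63, SE 0.09, edgeR adjusted p = 8.92e-05). Trub2 measured 13.3, 13.3, 13.9 and 15.4 CPM in Mock and 24.4, 22.5, 19.9 and 23.2 CPM in GC7, and Mock replicate 2 did not stand out. Dhx30, Mterf3, Fastkd2, Gtpbp10 and Mrm3 also rose, and Trmt2b, a uridine methyltransferase, fell (log2 fold change -0.29, adjusted p = 0.00232). Of 14 translation factors tested, Oxa1l, the insertase that receives nascent chains at the inner membrane, rose (log2 fold change 0.27, adjusted p = 0.00346) and Mtrf1l, a release factor, fell (log2 fold change -0.35, adjusted p = 0.00761), each 7.14% of the list. Both calls were near the threshold. In the fit with a replicate block, adjusted p-values were 0.0102 for Oxa1l and 0.0125 for Mtrf1l, and without Mock replicate 2 Oxa1l alone was called (Mtrf1l log2 fold change -0.34, adjusted p = 0.0123). Rpusd3 and Slirp did not pass the filter.

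The proteins of the cytosolic ribosome gave a different count. Their list was taken by symbol, and of 81 genes tested 60 rose and 0 fell by edgeR's test, none with a negative log2 fold change, and the median was 0.47. That 74.1% of this list rose compares with 15.6% of the mitochondrial list and 23.0% of all tested genes, and the lists were compared by these counts alone. Rps19bp1 and Rpl7l1 match the symbol rule without being proteins of the mature cytosolic ribosome. Neither was called, and without them 60 of 79 genes rose (75.9%). Without Mock replicate 2 the cytosolic count was 77 of 81 and the mitochondrial count 18 of 77.

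**Figure D5:**
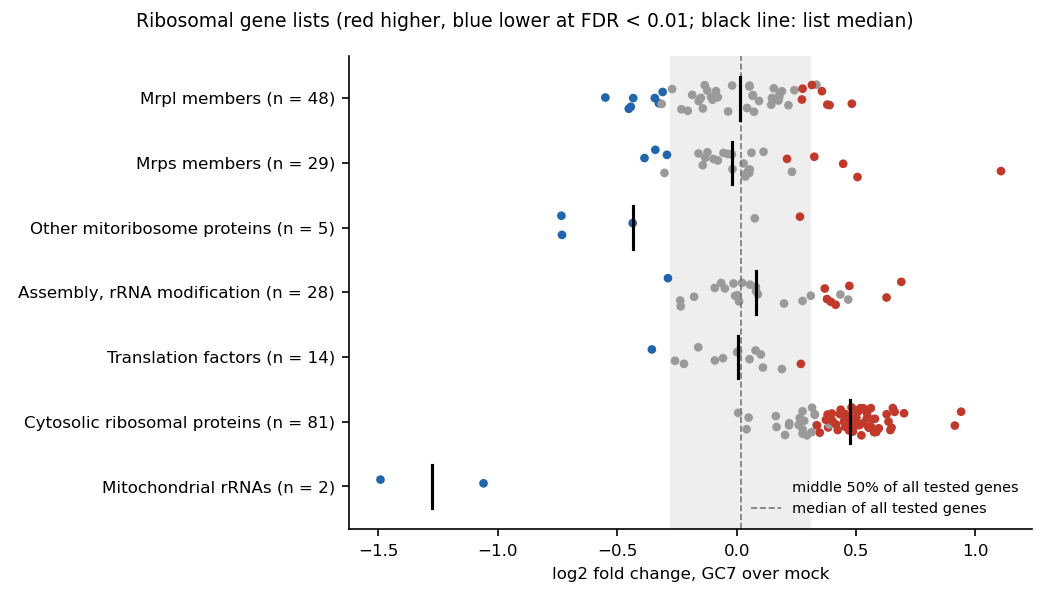
Log2 fold change (x axis) of each tested gene in 7 lists, with the list median as a black line and calls at an FDR under 0.01 in red (higher) and blue (lower); the grey band spans the middle 50% of all tested genes. Mrpl and Mrps members lie on both sides of 0 (medians 0.01 and -0.02, and 0.08 each without Mock replicate 2, when the median of all tested genes was 0.01), genes with cytosolic ribosomal protein symbols lie to the right (median 0.47) and both rRNAs far to the left.

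Some members start head to head with another gene, and the share of such starts over all tested genes was not determined. Of the tested members, 29 had a tested protein-coding gene on the other strand whose start lay within 1000 bases, in 28 pairs of genes, with Mrps11 and Mrpl46 paired to each other. Among these 29 members 7 were called, beside 28.6% of all tested members and 46.6% of all tested genes. For 5 of the 7 the partner was not called: Mrpl18 with Tcp1, Mrpl27 with Eme1, Mrpl41 with Pnpla7, Mrpl57 with Ska3 and Mrps27 with Ptcd2. Mrpl54 fell together with Apba3, an adaptor protein gene whose start is 26 bases away and whose log2 fold change was -0.93 (adjusted p = 9.3e-06). Mrpl14 fell while Tmem63b rose (log2 fold change 0.64, adjusted p = 0.00362). Mrpl14, Mrpl18 and Mrpl27 share 106, 141 and 75 exon bases with Tmem63b, Tcp1 and Eme1. Without a stated strand setting, the values of these members and partners may not be separate readings. In a further 5 cases the partner was called and the member was not, and in 17 neither was. Whether members and partners agreed more or less often than other genes was not tested.

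Promoter windows, from 250 bases before to 50 bases after the RefSeq start (GRCm38.p6), were found for 69 of the 78 members. No window was found for Mrpl4, Mrpl13, Mrpl15, Mrpl19, Mrpl38, Mrpl54, Mrps28, Mrps34 and Mrps35. Short cores of 4 motifs were searched on both strands: CCGGAAG for ETS factors, GCATGCG for NRF1, AAGATGG for YY1 and CACGTG for E-box factors, with overlapping matches of a palindromic site counted once per gene. The ETS core was in 37.7% of the members' windows and in 22.8% of those of the tested genes. The YY1 core was in 18.8% and 8.89%, the NRF1 core in 11.6% and 7.93%, and the E-box in 7.25% and 12.2%. For the cytosolic ribosomal protein genes the shares were 39.4% (ETS), 15.2% (YY1), 7.58% (NRF1) and 9.09% (E-box). Higher ETS and YY1 shares than in the tested genes were therefore not particular to the members. Among members that rose, 2 of 11 with a window held the ETS core, among those that fell, 4 of 9, and among those not called, 19 of 48. Whether these shares differ was not tested. A match is a run of letters in these windows and does not show a site in use.

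Mrpl52 is shown as the rising member whose window held the ETS and YY1 cores, and Mrpl9 and Mrpl10 as the falling members that held the NRF1 core. Mrps36 is shown as a falling member with none of them. Capitals mark the motif cores, on either strand, and each stretch ends before the first annotated exon. Those of Mrpl52 (chr14:54426659-54426908, plus strand), Mrpl9 (chr3:94443086-94443317, plus strand), Mrpl10 (chr11:97041408-97041559, plus strand) and Mrps36 (chr13:100744660-100744909, minus strand) read, in GRCm38.p6:
Mrpl52: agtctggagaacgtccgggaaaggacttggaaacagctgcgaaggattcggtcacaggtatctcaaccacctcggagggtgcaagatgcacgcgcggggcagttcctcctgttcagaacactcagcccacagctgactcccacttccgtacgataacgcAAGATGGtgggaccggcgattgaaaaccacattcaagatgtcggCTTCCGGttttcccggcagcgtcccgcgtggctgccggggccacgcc
Mrpl9: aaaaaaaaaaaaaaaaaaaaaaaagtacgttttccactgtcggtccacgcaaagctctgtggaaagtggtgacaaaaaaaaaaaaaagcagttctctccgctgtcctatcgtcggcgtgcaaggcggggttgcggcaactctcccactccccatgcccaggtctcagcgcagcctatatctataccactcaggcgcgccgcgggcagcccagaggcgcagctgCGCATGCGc
Mrpl10: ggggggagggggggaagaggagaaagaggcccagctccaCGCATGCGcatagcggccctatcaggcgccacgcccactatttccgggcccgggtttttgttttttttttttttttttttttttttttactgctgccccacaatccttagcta
Mrps36: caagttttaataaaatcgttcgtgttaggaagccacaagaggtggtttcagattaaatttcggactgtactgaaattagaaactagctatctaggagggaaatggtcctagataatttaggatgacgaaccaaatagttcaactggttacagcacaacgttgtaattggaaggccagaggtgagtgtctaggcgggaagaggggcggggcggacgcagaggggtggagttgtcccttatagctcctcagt
The NRF1 core of Mrpl9 and Mrpl10 reads in both directions, as its letters and their reverse complement overlap. Mrpl9 measured 75.7, 88.1, 78.8 and 74.9 CPM in Mock and 60.7, 63.6, 66.5 and 65.5 CPM in GC7 (log2 fold change -0.31, SE 0.07, edgeR adjusted p = 0.00177). Mrpl33, which also held the NRF1 core in its window, rose, so the core was found on both sides.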

How the data were processed

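All 8 libraries were used (4 Mock, 4 GC7, grouped by their titles). Per the methods and labels, the authors used cutadapt to trim the read pairs, STAR to align them to GRCm38 and featureCounts to assign them to genes. The counts they deposited are raw, with a separate table for each library. The strand setting and the handling of reads that match several places are not given in the sources used here. Gene symbols and positions came from the Ensembl 96 annotation, which matched all 55536 identifiers.

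Genes over 3 CPM in at least 4 libraries were fitted with edgeR (version 4.0.16) by its quasi-likelihood test, with TMM factors and group as the only term, and called at a Benjamini-Hochberg FDR under 0.01. P-values set the difference between the groups against the spread between the 4 libraries of a group, as moderated across the tested genes. Whether this is a spread between animals is not known, as the labels give none. In simulated counts for this comparison (11189 genes), 100 of 100 genes changed 2-fold and 93 of 100 changed 1.5-fold were called, with 4 false calls. The simulation gave all genes the same dispersion, had no library like Mock replicate 2, and changed few genes, whereas 46.6% were called in the data. All members but Mrps6 changed by less than 1.5-fold, so these rates do not cover changes of their size. Alternatives were RLE factors, library totals, TMM without mitochondrially encoded genes, other filters, DESeq2 (version 1.42.0), a replicate block, protein-coding genes only and leaving out each library. Pseudogene copies were searched with BLAST (version 2.17.0, at least 90% identity over 200 bases). The members and lists were chosen with earlier results of these data known. Members were named in full by size of change (the 5 largest each way per subunit that moved alike in all same-numbered pairs), 2-fold change, extremes of level per length, and known role. Other members named were chosen after their values were seen.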

Additional observations from a re-analysis of the deposited data

Results flagged for a closer look

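In each group of 4 libraries, the gap between an extreme library and its neighbour was compared with the group's range for the 30 named members, Slc5a3, the 2 mitochondrial rRNAs and the 2 subunit sums. Of 70 groups, 9 exceeded Dixon's critical ratio for 4 values, where chance gives about 1 in 20 for independent groups. These groups share the same 8 libraries and the sums contain the members, so they are not independent. Mock replicate 2 was the high library in 8 of the 9. Its ratio was 0.949 for the summed large subunit members and 0.934 for the summed small subunit members. Among single members it was 0.914 for Mrps21, 0.894 for Mrps16, 0.881 for Mrpl52, 0.853 for Mrpl12, 0.852 for Mrpl27 and 0.830 for Mrpl54. The last was GC7 replicate 1, which was low for Mrps18c (ratio 0.938). Neither rRNA was among them. Mock replicate 2 also had the largest library (25284730 counts) and the lowest TMM factor (0.935), and their part in its high member levels was not tested.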

How the results depend on the processing

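Of 480 refits of the 30 named members, 415 kept direction and side of the threshold, 50 lost the call, 4 gained it and 11 changed sign, none of these 11 in a called member. With library totals in place of TMM, the median log2 fold change of all genes was 0.11, 15 large subunit members rose, 1 small subunit member fell, calls were 21 higher and 7 lower (75% higher, against 54.5% with TMM; over all genes 61.9% against 49.5%), and log2 fold changes changed sign for Mrpl34 (0.0616), Mrps18a (0.0744) and Mrps18c (0.0585). At an FDR under 0.05, 12 large subunit members rose. Small subunit members that rose numbered 3 with RLE factors, with TMM without mitochondrially encoded genes, with filterByExpr and with the replicate block. Small subunit members that fell numbered 1 with the replicate block and 1 by place in the ribosome. Leaving out 1 library gave 1 to 14 rising large, 3 to 4 rising small and 1 to 3 falling small subunit members. In those refits, log2 values spanned -0.0917 to 0.0865 for Mrpl34, -0.0842 to 0.0598 for Mrps18a, -0.0803 to 0.0347 for Mrps18c and -0.0191 to 0.1004 for Mrps7, changing sign in each. The cause was not tested. Whether same-numbered libraries form pairs is not known, as the labels give no animal. Their deviations correlated at 0.27, -0.12, 0.20 and -0.18 for numbers 1 to 4. The mean was 0.04, beside -0.02 for libraries of different number. Mock replicate 2 correlated best with GC7 replicate 4 (0.42). So few and weak correlations cannot settle the pairing. With the block, 5 large subunit members rose and 7 fell. Every tested member had at least 202 counts in each library. Mrpl53 was not tested, and its count cannot be read because of the overlap with Gm42688.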
